A study of Mus musculus with 3 samples.

Results

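The genes of cardiomyocyte calcium handling described here are 10 of the 29994 genes counted in 3 single-cell libraries of mouse ventricular tissue, chosen by symbol: Ryr2, Casq2, Trdn, Hrc, Atp2a2, Pln, Cacna1c, Slc8a1, Jph2 and Camk2d. All 10 are among the genes counted, with at least 345 transcripts each in the cardiomyocytes of every library. Each beat begins when calcium enters through the L-type channel, whose pore is made by Cacna1c, and opens the ryanodine receptor Ryr2 of the sarcoplasmic reticulum. The pump Atp2a2 (SERCA2a), held back by phospholamban (Pln), returns calcium to the store, and the exchanger Slc8a1 (NCX1) removes it from the cell. In the ventricle this cycle sets the force and the speed of relaxation of each contraction, and it is altered in pressure overload and heart failure.

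The study compared 3 groups of C57B6 mice in a search for drugs against cardiac fibrosis. TAC+ART hearts came from TAC animals given artesunate, an artemisinin derivative used against malaria. TAC hearts and Sham hearts both came from animals given vehicle. TAC is the usual abbreviation for transverse aortic constriction, a surgical narrowing of the aorta that loads the left ventricle with pressure. The labels give no age, sex, dose or time after surgery. For each group, ventricles of 3 mice were frozen, pooled and run as 1 library on the 10x Genomics platform, so a group is a single sample with no replicate. Differences between libraries are therefore described and not tested, and the 95% intervals below cover counting error only, not the spread between mice. Whether the barcodes hold intact cells or isolated nuclei is not given.

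The libraries held 6856 barcodes in TAC+ART, 7413 in TAC and 3752 in Sham, with 33364667, 37658150 and 17710689 transcripts counted by unique molecular identifier (UMI). Between 20 and 27 barcodes occurred in both libraries of a pair. Cardiomyocytes were the barcodes in which 8 marker genes such as Ttn, Myh6 and Tnnt2 gave at least 244 of every 10000 UMIs. At least 3 of the markers had to be detected, and no marker list of an unrelated class could pass its own threshold. The atrial list counted as related, and barcodes past both went to the one with the higher share relative to its threshold. There were 333 such cardiomyocytes in TAC+ART, 212 in TAC and 289 in Sham, which was 4.86% (exact binomial interval 4.36 to 5.39), 2.86% (2.49 to 3.27) and 7.71% (6.87 to 8.61) of cells. Of the barcodes past the cardiomyocyte threshold, 33.1%, 44.9% and 15.2% in the same order also passed an unrelated class and were left out. The part of this rule in the shares was not tested. All 8 gate markers and all 15 further cardiomyocyte genes kept out of the gate were detected in each library. The 5 atrial markers gave 0.0328%, 0.141% and 0.00203% of cardiomyocyte UMIs in TAC+ART, TAC and Sham. Nearly all of these were Nppa, also a stress gene of the ventricle, with 680, 1688 and 34 UMIs. The defining atrial genes Sln and Myl7 had 0, 0 and 0 and 3, 0 and 1 UMIs. The cardiomyocytes were not alike in RNA composition: the median mitochondrial share was 0.642% in TAC+ART, 2.64% in TAC and 0.514% in Sham, and the median depth was 6579, 5253 and 7728 UMIs. Fibroblast markers, all 10 detected, made up 0.190%, 0.214% and 0.0632% of cardiomyocyte UMIs in the same order. These differences lie between the same 3 libraries as the results that follow, and their part in those results was not tested.

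Over all gated cardiomyocytes, 5 calcium-handling genes were higher in the TAC library than in Sham and 5 were lower. The store proteins Casq2 and Hrc were 1.90- and 1.93-fold higher, while Trdn, Cacna1c and Camk2d were lower by more than 1.5-fold. Over the same cells, the TAC+ART library differed from TAC in the opposite direction for all 10 genes and was within 1.5-fold of Sham for all 10. Since these comparisons share libraries, the opposite signs are not a separate observation. The TAC library also held a larger share of cardiomyocytes of a second, Ttn-rich cluster. Within clusters the TAC over Sham ratios of Casq2, Hrc, Atp2a2, Pln, Slc8a1, Jph2 and Camk2d changed sign in at least 1 of them, as given further on. The share of all genes that changed sign is not given here. For Casq2, Slc8a1 and Camk2d every changed ratio had an interval that included 0. The opposite direction of TAC+ART over TAC did not hold for every gene inside the clusters either. Slc8a1 had positive ratios in both comparisons in each cluster. In the other cluster Atp2a2 was at -0.09 for TAC over Sham and -0.10 for TAC+ART over TAC. In the Ttn-rich cluster Cacna1c and Hrc passed 1.5-fold for TAC+ART over Sham, at 0.70 and -0.65. Camk2d did so too, with an interval that included 0. Levels are cardiomyocyte UMIs scaled to CPM, counts per 1000000 UMIs of the same cells, and are compared only within a gene.

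The release complex was split. Ryr2, the calcium release channel, stood at 9352 CPM (interval 9223 to 9483) in TAC+ART, 7102 CPM (6953 to 7254) in TAC and 10050.4 CPM (9914 to 10188) in Sham. Its TAC level over all gated cells was the lowest of the 3, with a log2 ratio of -0.50 over Sham, and no interval overlapped another. Inside the clusters that ratio was -0.06 (-0.10 to -0.03) in the Mhrt-led and -0.39 (-0.57 to -0.20) in the Xirp2-led one. Trdn, which encodes triadin and ties the release channel to calsequestrin, had 2304 CPM in TAC+ART, 1569.8 CPM in TAC and 2644 CPM in Sham. The log2 ratio of TAC over Sham was -0.75 (-0.83 to -0.68) and that of TAC+ART over TAC was 0.55 (0.48 to 0.63). Trdn overlaps the antisense gene D830005E20Rik, which had 4888, 2067 and 3683 UMIs over all cells of TAC+ART, TAC and Sham. Whether counting used the strand is not stated, and whether reads of one gene were counted for the other was not checked.

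The 2 calcium-binding proteins inside the store ran the other way. Casq2, cardiac calsequestrin, was at 349 CPM (324 to 375) in TAC+ART, 533 CPM (493 to 576) in TAC and 280.04 CPM (258 to 304) in Sham. TAC was highest, the TAC+ART level lay between the other libraries, and the intervals did not overlap. Hrc, the histidine-rich calcium-binding protein, had 187 CPM (169.5 to 207) in TAC+ART, 323 CPM (291 to 356) in TAC and 167 CPM (149.98 to 186) in Sham. Here the TAC+ART and Sham intervals overlapped, and TAC lay above both. Over all gated cells the log2 ratios of TAC over Sham were 0.93 (0.77 to 1.09) for Casq2 and 0.95 (0.74 to 1.16) for Hrc. Inside the clusters the ratio of Hrc was 0.11 (-0.26 to 0.46) in the Mhrt-led and -0.64 (-0.95 to -0.32) in the Xirp2-led one. That of Casq2 was 0.96 in the Mhrt-led cluster and -0.02 (-0.41 to 0.41) in the Xirp2-led one.

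The uptake genes differed least between TAC and Sham over all gated cardiomyocytes. Atp2a2, the pump, had 2955 CPM in TAC+ART, 3817 CPM in TAC and 3236 CPM in Sham. Its inhibitor Pln had 2240.3 CPM in TAC+ART, 2597 CPM in TAC and 2344 CPM in Sham. Both were highest in TAC, by 1.18- and 1.11-fold over Sham, and neither reached 1.5-fold in any comparison of all gated cells. Neither direction held inside the clusters: within each of the 2 cardiomyocyte clusters both genes were lower in TAC than in Sham. Atp2a2 was past 1.5-fold in the Xirp2-led cluster, with a log2 ratio of -0.68 for TAC over Sham. It was at -0.09 in the Mhrt-led one. Pln was at -0.41 and -0.40 in the same order. Pln shares its locus with Cep85l on the other strand, which had 7341, 8311 and 4028 UMIs over all cells of TAC+ART, TAC and Sham.

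Over all gated cardiomyocytes, the genes of entry and extrusion were both lower in TAC than in Sham. Cacna1c had 9268 CPM (9139 to 9398) in TAC+ART, 4884 CPM (4760.2 to 5010.2) in TAC and 8081 CPM (7959 to 8205) in Sham. This was the largest separation of TAC+ART from TAC among the 10 genes, with a log2 ratio of 0.92 (0.88 to 0.97) and a TAC level 0.604 times that of Sham. Slc8a1 had 8489 CPM in TAC+ART, 5332 CPM in TAC and 7379 CPM in Sham, with log2 ratios of -0.47 for TAC over Sham and 0.67 for TAC+ART over TAC. Inside the clusters the TAC over Sham ratio of Slc8a1 was near 0. It was 0.11 (-0.24 to 0.50) in the Xirp2-led and 0.04 (-0.01 to 0.08) in the Mhrt-led one, and both intervals included 0. Over all gated cells both genes were 0.20 higher on the log2 scale in TAC+ART than in Sham.

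The junctional protein and the kinase also parted. Jph2, junctophilin 2, which holds the T-tubule membrane against the sarcoplasmic reticulum, had 481 CPM (452 to 512) in TAC+ART, 716 CPM (669 to 766) in TAC and 499 CPM (469 to 530) in Sham. Camk2d, the main calmodulin-dependent kinase of the heart, had 937 CPM (896 to 979) in TAC+ART, 564 CPM (523 to 608) in TAC and 889 CPM (848 to 930) in Sham. For both genes TAC stood apart while the TAC+ART and Sham intervals overlapped. Their log2 ratios of TAC over Sham were 0.52 for Jph2 and -0.65 for Camk2d over all gated cells. Inside the clusters Jph2 was at 0.80 in the Mhrt-led and -0.55 in the Xirp2-led one. Camk2d was at -0.26 in the Mhrt-led cluster and 0.19 (-0.53 to 1.05) in the Xirp2-led one.

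**Figure D1:**
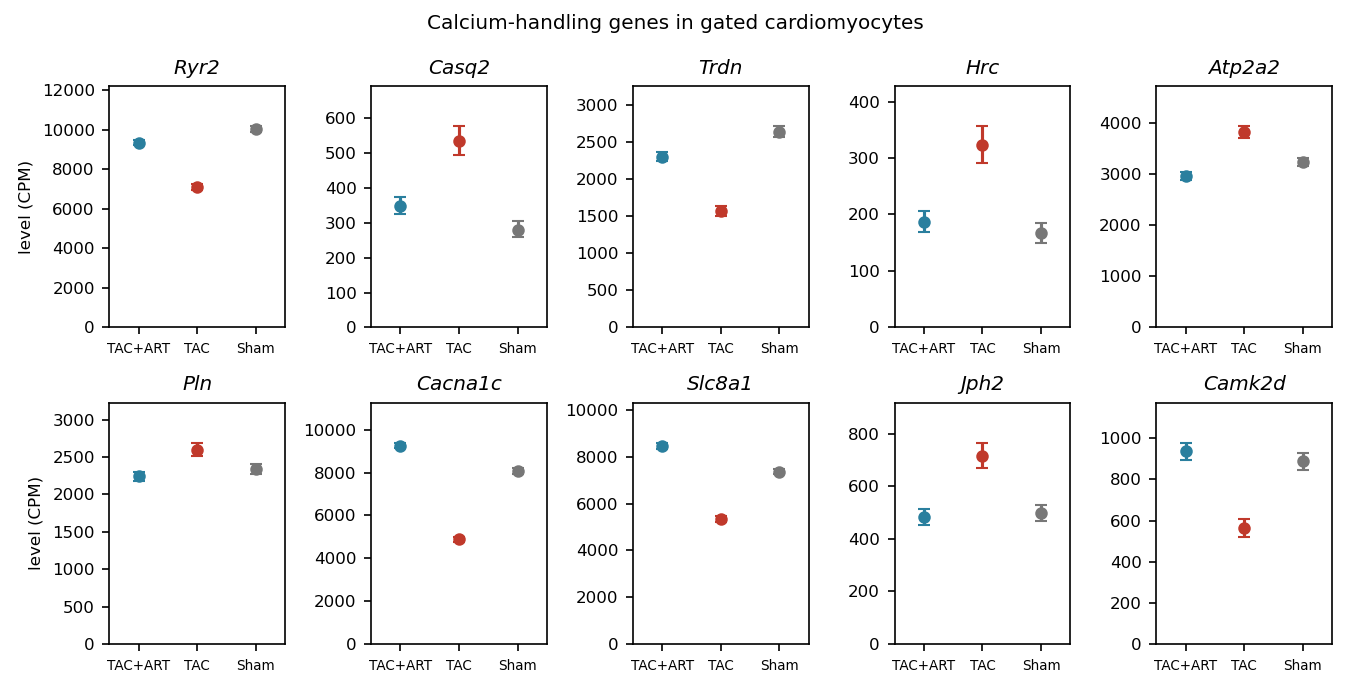
Level of each calcium-handling gene in gated cardiomyocytes of the TAC+ART, TAC and Sham libraries, in CPM from a zero baseline. Points are 1 library each and bars are 95% Poisson intervals. TAC is lowest for Ryr2, Trdn, Cacna1c, Slc8a1 and Camk2d and highest for Casq2, Hrc, Atp2a2, Pln and Jph2.

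The counts past 1.5-fold were set beside those of all genes. For TAC over Sham, 2 of the 10 were higher and 3 lower by 1.5-fold or more, beside 21.8% higher and 21.7% lower among the 4951 genes with at least 100 UMIs over both libraries. The median log2 ratio was -0.16 for the 10 genes and -0.13 for all genes. Between TAC+ART and TAC, 3 were higher in TAC+ART and 2 lower, beside 11.4% and 18.2% of 5003 genes, with medians of 0.09 and 0.03. For TAC+ART over Sham none passed 1.5-fold, beside 9.37% higher and 6.15% lower of 5644 genes. There the 10 genes spanned log2 ratios of -0.20 to 0.32.

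Gene length divided the genes the same way as the TAC over Sham ratio. The 5 lower in TAC were Camk2d, Slc8a1, Trdn, Ryr2 and Cacna1c, which span 250.025, 365, 396, 554 and 609 kb of the mouse genome (build GRCm38). The 5 higher in TAC were Hrc, Pln, Atp2a2, Casq2 and Jph2, which span 3.69, 8.32, 48.7, 60.1 and 61.8 kb. All expressed genes followed length too: the median log2 ratio of TAC over Sham was 1.33 for 632 genes under 10 kb, -0.21 for 1911 genes of 30 to 100 kb and -0.42 for 262 genes over 300 kb. The same classes had medians of -0.80, 0.11 and 0.27 for TAC+ART over TAC. The part of length in the ratios of single genes was not tested.

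Beside genes of like length, some calcium-handling genes stood high or low. Casq2, Jph2 and Atp2a2 lay at 0.93, 0.52 and 0.24, above the upper quartile of 0.14 for genes of 30 to 100 kb. Pln lay at 0.15, just below the lower quartile of 0.16 for genes under 10 kb, whereas Hrc lay within the quartiles of that class. Of the 4 genes over 300 kb, Trdn lay at the lower quartile of -0.75, and Ryr2, Cacna1c and Slc8a1 were inside the quartiles. In TAC+ART over TAC, Cacna1c and Slc8a1 lay above the upper quartile of 0.56 for their class, Camk2d lay above that of 0.49 for its own, and Casq2, Jph2 and Atp2a2 lay below the lower quartile of -0.18 for theirs.

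**Figure D2:**
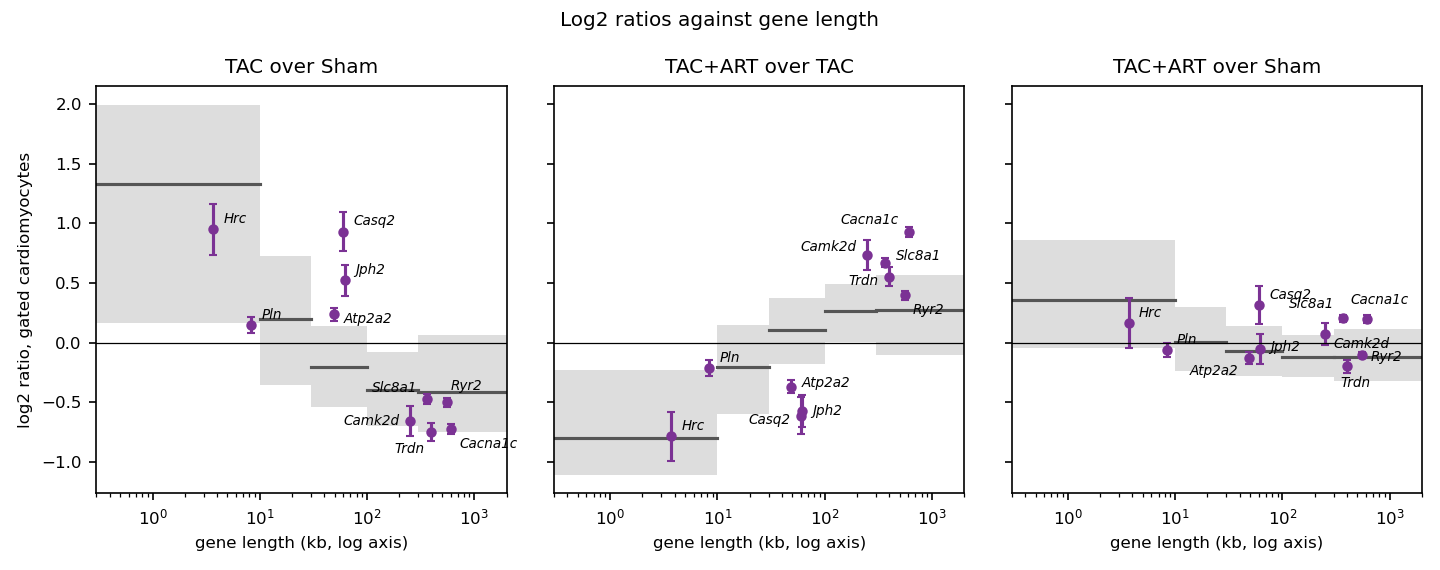
Log2 ratio of each calcium-handling gene in gated cardiomyocytes (points, 95% counting intervals) against gene length in kb on a log axis, for TAC over Sham, TAC+ART over TAC and TAC+ART over Sham. Grey bands are the quartiles and dark lines the medians of all expressed genes in 5 length classes. In TAC over Sham the 5 longest genes lie below 0 and the 5 shortest above it.

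The cardiomyocytes fell into 2 clusters that differed in RNA composition. They were clustered without the 10 genes. One, led by the sarcomere-associated genes Xirp2 and Ttn, held 62 gated cells in TAC+ART, 91 in TAC and 27 in Sham. The other, led by Mhrt (a nuclear long non-coding RNA of the Myh6 and Myh7 locus) and Rbm20, held 258, 106 and 253. As a share of the gated cells the Xirp2-led cluster was 18.6% in TAC+ART, 42.9% in TAC and 9.34% in Sham, and since genes that define it differ between libraries, these shares are given only as values that move with the results. Its median mitochondrial share was 4.74%, 4.01% and 5.12%, against 0.508%, 0.625% and 0.441% in the Mhrt-led cluster. Malat1, a nuclear RNA, gave 0.844%, 0.772% and 0.444% of UMIs in the Xirp2-led cluster, against 12.2%, 13.7% and 13.1% in the Mhrt-led one. Median depth was 3581, 3972 and 3384 UMIs against 7761, 7132.5 and 8049.

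Within every library the clusters held the calcium-handling genes in different proportions. Cacna1c had 602, 357 and 367 CPM in the Xirp2-led cells of TAC+ART, TAC and Sham, against 10591, 7640 and 8610 CPM in Mhrt-led cells. Hrc showed the reverse, with 729, 733 and 1140 CPM in Xirp2-led cells against 117, 121 and 112 CPM in Mhrt-led cells. Log2 ratios of the Xirp2-led over the Mhrt-led cluster ran from -4.53 to -4.13 for Cacna1c and from 2.60 to 3.35 for Hrc. Slc8a1, Ryr2, Camk2d and Trdn were also lower in Xirp2-led cells of every library, and Pln, Atp2a2 and Casq2 were higher in each. Jph2 had log2 ratios of 0.26, -0.66 and 0.69 in TAC+ART, TAC and Sham. Genes in general followed length here as well: the median was 2.45, 2.32 and 2.58 for genes under 10 kb and -1.60, -1.62 and -1.66 for genes over 100 kb.

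**Figure D3:**
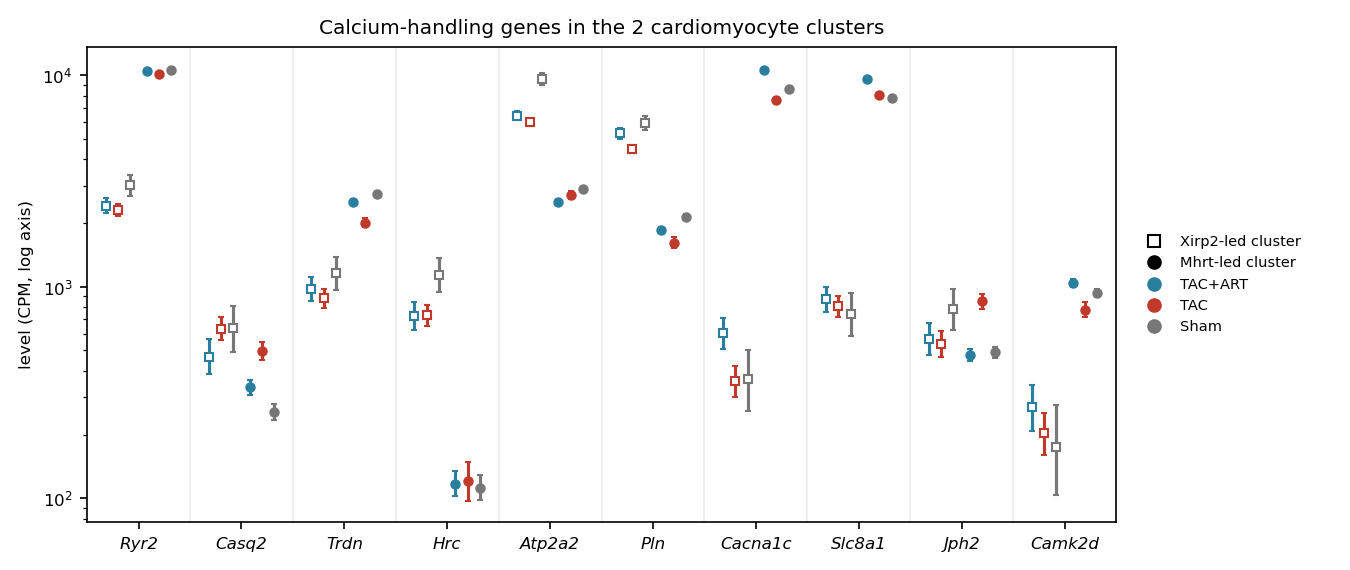
Level of each calcium-handling gene in the Xirp2-led cluster (open squares) and the Mhrt-led cluster (filled circles) of cardiomyocytes, in CPM on a log axis, with 95% Poisson intervals. Colours mark the TAC+ART, TAC and Sham libraries. Cacna1c and Slc8a1 are far lower and Hrc is far higher in the Xirp2-led cluster of every library.

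When the libraries were compared inside the Mhrt-led cluster, most differences were smaller, and 2 genes were past 1.5-fold for TAC over Sham. Casq2 had passed it over all gated cells too, whereas Jph2 had not. Casq2 had 334 CPM in TAC+ART, 498 CPM in TAC and 256 CPM in Sham, a log2 ratio of 0.96 (0.760 to 1.154) for TAC over Sham. Jph2 had 477 CPM in TAC+ART, 852 CPM in TAC and 489 CPM in Sham, a log2 ratio of 0.80 (0.65 to 0.95) for TAC over Sham. These were 2 of 10 genes higher and 0 of 10 lower, beside 11.8% higher and 14.1% lower of 4017 genes. In TAC+ART over TAC, Jph2 alone passed the fold, with a log2 ratio of -0.84 (-0.99 to -0.69), and Casq2 followed at -0.57 (-0.76 to -0.39), beside 8.7% lower and 6.52% higher of 3909 genes. No gene of the 10 passed it for TAC+ART over Sham, beside 6.61% higher and 6.04% lower of 5066.

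Among the other genes of that cluster, Ryr2 was close to level, with 10444 CPM in TAC+ART, 10099 CPM in TAC and 10555 CPM in Sham and a log2 ratio of -0.06 for TAC over Sham. Hrc, at 0.11 (-0.26 to 0.46), no longer differed beyond counting error. Slc8a1 had a TAC over Sham ratio of 0.04, Atp2a2 of -0.09, Cacna1c of -0.17 and Camk2d of -0.26. Trdn and Pln were lowest at -0.45 and -0.40. Pln had 1847 CPM in TAC+ART, 1616 CPM in TAC and 2135 CPM in Sham, so that TAC, the highest library over all cardiomyocytes, was the lowest here. Cacna1c remained higher in TAC+ART than in TAC, by 0.47 (0.43 to 0.51), with 10591 CPM in TAC+ART and 7640 CPM in TAC.

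Because Casq2 and Jph2 were the pair that differed together in Mhrt-led cells, their upstream sequences are shown. RefSeq promoter windows (build GRCm38.p6) matched 8 of the 10 genes, all but Atp2a2 and Trdn. The 250 bases before the annotated start are printed 5′ to 3′ on the gene's strand, with capitals marking a match to the MEF2 motif, which is bound by muscle transcription factors that respond to calcium signals. Casq2 lies on the plus strand at chr3:102086165-102086414 and Jph2 on the minus strand at chr2:163397994-163398243, where the first of 2 listed windows is used.
Casq2: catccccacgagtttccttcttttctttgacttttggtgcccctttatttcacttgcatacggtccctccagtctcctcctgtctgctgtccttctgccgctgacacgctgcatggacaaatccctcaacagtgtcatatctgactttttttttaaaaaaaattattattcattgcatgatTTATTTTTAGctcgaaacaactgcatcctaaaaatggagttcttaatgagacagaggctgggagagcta
Jph2: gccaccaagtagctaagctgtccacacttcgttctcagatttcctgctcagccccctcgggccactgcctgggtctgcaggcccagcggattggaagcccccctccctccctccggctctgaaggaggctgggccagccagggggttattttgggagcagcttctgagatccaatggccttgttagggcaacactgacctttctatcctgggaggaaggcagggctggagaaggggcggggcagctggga
Both strands were searched. The MEF2 motif occurred in Casq2 and in none of the other 7 windows, beside 3.01% of the 27025 promoters of the same length. The E-box CANNTG was found in 7 of the 8 genes, all but Camk2d, beside 66.0% of promoters. The NFAT core GGAAA was found in 6 of the 8, Jph2 and Casq2 among them, beside 55.6% of promoters. A match is a stretch of letters and says nothing of binding in these hearts.

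Inside the Xirp2-led cluster the differences were of another kind and rested on fewer cells, 62 in TAC+ART, 91 in TAC and 27 in Sham. Atp2a2 had 6439 CPM in TAC+ART, 6011 CPM in TAC and 9611 CPM in Sham, a log2 ratio of -0.68 (-0.78 to -0.57) for TAC over Sham. Hrc was also lower in TAC than in Sham, with a ratio of -0.64 (-0.95 to -0.32), and these were 2 of 10 lower and 0 of 10 higher beside 9.71% lower and 11.9% higher of 680 genes. Jph2 had 569 CPM in TAC+ART, 537 CPM in TAC and 782 CPM in Sham, so its TAC over Sham ratio of -0.55 (-0.92 to -0.15) had the opposite sign to that of Mhrt-led cells. Pln, Trdn and Ryr2 were lower as well, with ratios of -0.41, -0.40 and -0.39. For Pln this was the same size as in Mhrt-led cells, with 5306 CPM in TAC+ART, 4477 CPM in TAC and 5950.4 CPM in Sham. Casq2, Cacna1c, Slc8a1 and Camk2d had intervals that included 0. Camk2d had 80 UMIs in TAC and 18 in Sham, below the UMI minimum that the 680 genes met, so it was not among them.

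In the same cluster, Cacna1c was the 1 gene of 10 past 1.5-fold for TAC+ART over TAC, higher at 0.75 (0.41 to 1.10), beside 2.87% higher and 5.05% lower of 872 genes. For TAC+ART over Sham, Cacna1c and Camk2d were higher and Hrc lower by that fold, beside 7% higher and 5.03% lower of 457 genes. Camk2d had 64 UMIs in TAC+ART and 18 in Sham, below the UMI minimum that the 457 genes met, so it was not among them. The interval of Camk2d, -0.14 to 1.47, included 0.

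**Figure D4:**
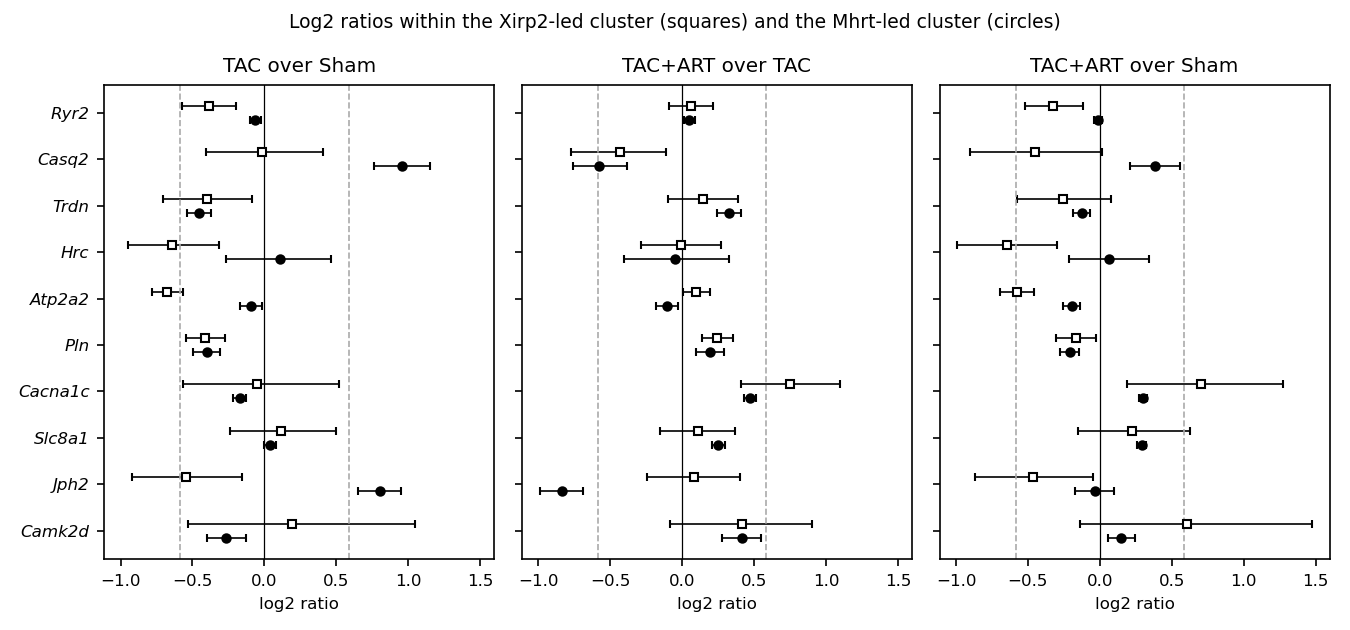
Log2 ratios of the calcium-handling genes within the Xirp2-led (squares) and Mhrt-led (circles) cardiomyocyte clusters for each comparison, with 95% counting intervals; dashed lines mark 1.5-fold. In TAC over Sham, Casq2 and Jph2 lie past the upper line in Mhrt-led cells, and Jph2 lies below 0 in Xirp2-led cells.

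Levels in cells with and without a Nppa UMI are not reported here. Such a UMI was found in 35.7%, 79.7% and 6.57% of cardiomyocytes in TAC+ART, TAC and Sham, and in 25.2%, 67.2% and 4.88% of endothelial cells, which should lack the gene. Median depth was 6579, 5253 and 7728 UMIs in the cardiomyocytes and 3980.0, 4197 and 3727 UMIs in the endothelial cells.

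The partners of the 10 genes were read from 9 lists. Over all lists, 20 of 69 tested partners were higher and 16 lower in TAC than in Sham by 1.5-fold or more, beside the 21.8% higher and 21.7% lower of all genes given above. The counts of single lists stand beside the same background and are descriptions. Among calcium-responsive transcription factors and class II deacetylases, 0 of 9 tested genes were higher and 6 were lower in TAC than in Sham by 1.5-fold. Hdac4, a deacetylase that CaM kinase drives out of the nucleus, had a ratio of -1.52, with 95.9 CPM in TAC and 276 CPM in Sham. In TAC+ART it had 223 CPM, a ratio of 1.21 over TAC. Nfatc2, a calcineurin-activated factor, had a ratio of -1.06 for TAC over Sham, with 41.4 CPM in TAC and 86.7 CPM in Sham.

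The kinase, phosphatase and anchor list was mixed in TAC over Sham. It had 6 higher and 3 lower of 15, beside 21.8% higher and 21.7% lower of all genes. Rcan1 and Rcan2, both regulators of calcineurin, had opposite ratios. Rcan1 had 54.4 CPM in TAC+ART, 127 CPM in TAC and 46.0 CPM in Sham. Rcan2 had 1729 CPM in TAC+ART, 1025 CPM in TAC and 2558 CPM in Sham. Camk1d, another calmodulin-dependent kinase, was at 3023 CPM in TAC and 1261 CPM in Sham, a ratio of 1.26.

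Calmodulin and the other partners of the release channel and store gave 5 higher and 0 lower of 8 in TAC over Sham. Of all genes, 21.8% were higher and 21.7% lower. The calmodulin gene Calm3 led at 1.99 (1.39 to 2.65), with 62.0 CPM in TAC and 15.5 CPM in Sham. It rested on few counts, 75 UMIs in TAC and 32 in Sham. In the dyad and T-tubule list 2 were higher and 3 lower of 9, beside the same shares of all genes. Jph1, the other junctophilin of striated muscle, was lower in TAC at -1.06, with 65.3 CPM in TAC and 137 CPM in Sham, opposite in sign to Jph2. Ehd4, a membrane-trafficking protein, was higher at 1.44, with 466 CPM in TAC and 171 CPM in Sham.

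Of the L-type and T-type channel subunits and their inhibitors, 0 were higher and 1 lower of 5 in TAC over Sham, namely Cacna2d1 at -0.63. Among all genes 21.8% were higher and 21.7% lower. In TAC+ART over TAC the channel subunit Cacnb2 was higher at 0.75, with 2102 CPM in TAC+ART and 1253 CPM in TAC. The channel inhibitor Rrad was lower at -0.96, with 72.6 CPM in TAC+ART and 141 CPM in TAC. Membrane pumps gave 3 higher and 0 lower of 7 in TAC over Sham, beside the same 21.8% and 21.7% of all genes. Among the 3 was the sodium pump subunit Atp1b1 at 0.69, with 246 CPM in TAC and 152 CPM in Sham.

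Among mitochondrial calcium genes 3 were higher and 1 lower of 10 in TAC over Sham, beside 21.8% higher and 21.7% lower of all genes. Smdt1, a regulatory subunit of the mitochondrial calcium uniporter, was at 1.86, and its pore gene Mcu was at -0.64. In the list of IP3 receptors and store-operated entry, 1 was higher and 2 lower of 4, beside the same shares of all genes. Of the other SERCA regulators only 2 had enough UMIs, with 0 past the fold. Against TAC, TAC+ART gave 9 partners higher and 13 lower of 70 over the 9 lists, beside 11.4% higher and 18.2% lower of all genes. Against Sham it gave 5 higher and 2 lower of 74, beside 9.37% higher and 6.15% lower. These partners carry the same gene-length and cluster differences as the 10 genes, whose part was not tested.

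Outside cardiomyocytes, counts of these genes can include free RNA, meaning cardiomyocyte RNA counted in the barcodes of other cells. The genes were therefore read against the 15 further cardiomyocyte genes. How much of each level was free RNA and how much the cells' own was not tested. The median level of the 15 was 6.66% to 13.4% of that in cardiomyocytes over 5 other classes and 3 libraries. Ryr2 and Trdn stayed at or below 5.85% of their cardiomyocyte level in each class, no higher than that median in any library. In fibroblasts Ryr2 had 320 CPM in TAC+ART, 198 CPM in TAC and 273 CPM in Sham, and in endothelial cells 399, 267 and 326 CPM. Rbm20, another cardiomyocyte gene, was at 1.82% to 3.36% in the classes where it was the lowest of the 15. Set against the highest of the 15 genes, Camk2d lay above it in 14 of 15 pairs of class and library, Hrc in 8, Slc8a1 in 4, Casq2 in 3, Jph2 in 2 and Cacna1c in 1. Ryr2, Trdn, Atp2a2 and Pln did so in 0. The highest of the 15 lay at 26.9% to 38.0% of its cardiomyocyte level in TAC+ART, 15.8% to 20.8% in TAC and 37.2% to 53.1% in Sham. The bar was thus lowest in TAC, and these counts pool unlike bars.

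Slc8a1 stood out in macrophages, with 2569 CPM in TAC+ART, 2753 CPM in TAC and 2475 CPM in Sham. In endothelial cells it had 487, 348 and 358 CPM, and in fibroblasts 1317, 1415 and 968 CPM. When each cell was thinned to 1000 UMIs, 82.8% of macrophages in TAC+ART, 83.8% in TAC and 83.3% in Sham had a Slc8a1 UMI, against 38.1%, 27.1% and 27.6% of endothelial cells. Without thinning the macrophage shares were 98.2%, 97.7% and 99.0%, at median depths of 4369, 4745.5 and 4044 UMIs, and the endothelial shares were 81.5%, 67.6% and 64.8%, at 3980.0, 4197 and 3727 UMIs. The libraries filled different macrophage clusters: one led by F13a1 and Ms4a4a held 2.33%, 71.0% and 1.31% of gated macrophages in TAC+ART, TAC and Sham, and one led by F13a1 and Pdgfc held 69.3%, 0.367% and 66.7%.

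Pericytes held Cacna1c, Casq2, Jph2 and, by less, Camk2d above the level of the other non-myocyte classes in every library. Cacna1c had 2225 CPM in TAC+ART, 2126 CPM in TAC and 2474 CPM in Sham pericytes, against 282, 163 and 238 CPM in endothelial cells. Casq2 had 224, 199 and 218 CPM in pericytes, which is 64.4%, 37.4% and 77.8% of the cardiomyocyte level, against 51.1, 60.8 and 36.3 CPM in endothelial cells. Jph2 had 166, 193 and 139 CPM, against 28.9, 33.0 and 23.8 CPM in endothelial cells.

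The pericyte gate can admit vascular smooth muscle. Smooth muscle markers were 0.0636%, 0.0542% and 0.0614% of UMIs in gated pericytes of TAC+ART, TAC and Sham, with all 7 detected, and 11, 5 and 9 of the 449, 368 and 387 gated cells lay in the smooth muscle cluster. In that small cluster, of 21, 17 and 18 cells, Casq2 had 315, 353 and 520.4 CPM, against 205, 191 and 189 CPM in the pericyte clusters. Cacna1c had 2908, 3624 and 3296 CPM there, Jph2 332, 548 and 398 CPM, and Slc8a1 3104, 3048 and 3286 CPM. All 4 were thus measured in both kinds of mural cell, and higher in the smooth muscle cluster of every library.

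Camk2d had 367 to 526 CPM in each other class and library, 39.2% to 93.2% of the cardiomyocyte level. Hrc had 49.5 to 81.1 CPM, Atp2a2 487 to 612 CPM and Pln 269 to 469 CPM, with classes of a library close together. In fibroblasts Jph2 had 62.2 CPM in TAC+ART, 102 CPM in TAC and 57.8 CPM in Sham. The TAC over Sham log2 ratio in fibroblasts was 0.81 for Jph2 and 0.55 for Slc8a1, beside 0.44 for the further cardiomyocyte genes in the same cells. Gated fibroblasts also lay in different clusters: one led by Pcdh9 and Itgbl1 held 24.3%, 70.5% and 3.05% of them in TAC+ART, TAC and Sham, and one led by Kcnip1 and Pcdh9 held 47.2%, 1.51% and 79.6%. The part of both in the fibroblast ratios was not tested.

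**Figure D5:**
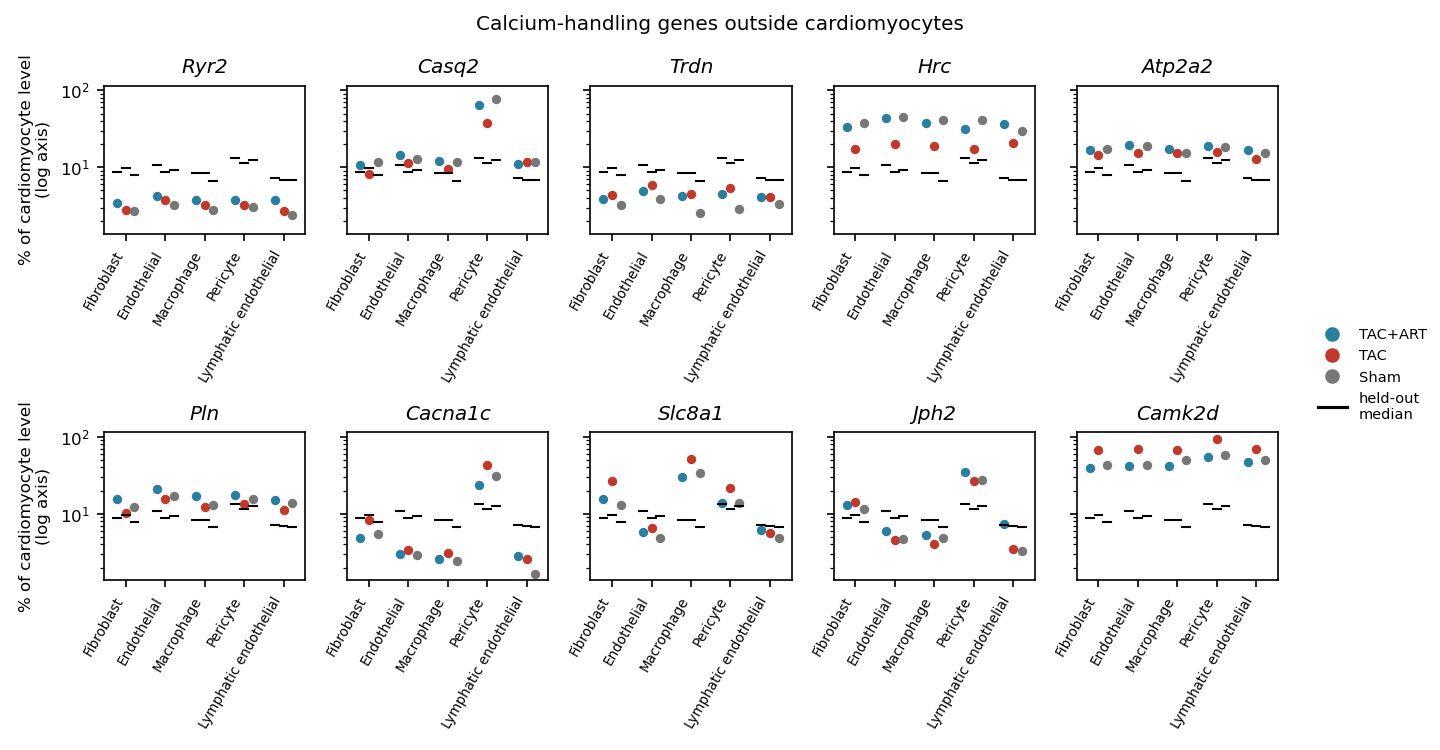
Level of each calcium-handling gene in 5 other cell classes as a percentage of its cardiomyocyte level in the same library (log axis), for TAC+ART, TAC and Sham from left to right in each class. Black dashes are the median of 15 cardiomyocyte genes kept out of the gate. Camk2d, Hrc, Atp2a2 and Pln stand above the dashes in every class and library. Slc8a1 does so in macrophages, fibroblasts and pericytes, Jph2 in pericytes and fibroblasts, and Cacna1c in pericytes. Casq2 does so in every class but fibroblasts, where libraries differ, and stands furthest above in pericytes.

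Genes whose levels ran most like those of the calcium-handling genes were found by Pearson's r over 18 points, 6 classes in 3 libraries, among 17280 genes. The points share libraries and free RNA, so r is a description. Ryr2 was nearest to the splicing factor gene Rbm20 (r = 0.997), Pln to Myh6 (0.995) and Atp2a2 to Tmem38a (0.994), which encodes a cation channel of the sarcoplasmic reticulum. Cacna1c was nearest to its own channel subunit gene Cacnb2 (0.986). Hrc was nearest to Perm1 (0.970), Casq2 to Parm1 (0.963), Jph2 to Synpo2 (0.963), Camk2d to Chchd3 (0.955) and Slc8a1 to Plekhm2 (0.9497).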

How the data were processed

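Gene-by-barcode UMI counts of 1 library per group were used as deposited. Per the submitters' processing notes Cell Ranger, Seurat and the mm10 build were used; the versions of these tools, and whether strand was used, were not given in the sources used here. Values deposited as counts were whole numbers throughout. A filter of 500 UMIs, 300 genes and a mitochondrial share up to 10% took out 0, 1 and 2 barcodes in TAC+ART, TAC and Sham.

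Each class was gated on its marker UMIs per 10000, at the valley between the peaks of the histogram over all libraries. Barcodes with no marker UMI were left out of that histogram, a choice made after its shape was seen. Cardiomyocyte-gated barcodes that also passed an unrelated class (165, 173 and 52 in TAC+ART, TAC and Sham) were left out. The cardiomyocytes held 2134073, 1209054 and 2063998 UMIs in the same order.

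Counts were summed per class and library. Ratios are log2 with a pseudocount of 0.5 and exact conditional binomial 95% intervals, levels have exact Poisson intervals, and shares exact binomial ones. Doublets were scored with Scrublet as an alternative and not removed in the main values. Cells were clustered by the Leiden method with scanpy 1.11.5 on 3000 variable genes without the calcium-handling and held-out genes. TMM factors came from edgeR 4.0.16. Gene lengths and positions came from GENCODE M21. The ratio step was checked on simulated counts.

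Partners were named from up to 2 highest and 2 lowest genes of each list past 1.5-fold; some results are not reported here. The genes, partner lists and comparisons were chosen with earlier results of these data known. With a single library per group, no test of a condition was made and no p-value is given.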

Additional observations from a re-analysis of the deposited data

Results flagged for a closer look

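Jph2 differed between the 2 cardiomyocyte clusters under the same comparison. Its log2 ratio of TAC over Sham was 0.80 (0.65 to 0.95) in the Mhrt-led cluster and -0.55 (-0.92 to -0.15) in the Xirp2-led cluster, which puts the first 1.35 above the second. Atp2a2 had log2 ratios of TAC+ART over TAC of -0.10 (-0.18 to -0.03) in the Mhrt-led cluster and 0.10 (0.01 to 0.19) in the Xirp2-led cluster, a difference of -0.204. In both cases the counting intervals lay on opposite sides of 0, and with 1 library per group the difference was not tested.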

How the results depend on the processing

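With 1 library per group, no result has a replicate check, and no library could be left out. No paired analysis was possible because each group is a single pooled library. Of 17 other settings, the counts of genes past 1.5-fold were compared with those reported. For TAC over Sham, the 3 genes lower became 5 with the cardiomyocyte threshold doubled, with it halved, with barcodes past 2 gates kept, with cells thinned to 1000 UMIs and with the mean over cells. They became 1 after subtraction of free RNA and 0 in the Mhrt-led cluster or at a mitochondrial share of at most 1%. Free RNA in gated cardiomyocytes was put at 18.9%, 24.4% and 9.01% in TAC+ART, TAC and Sham, from fibroblast, endothelial and macrophage markers. The 2 genes higher became 0 in the Xirp2-led cluster and at a mitochondrial share over 1%. For TAC+ART over TAC, the 2 genes lower became 1 under TMM scaling, median-of-ratios scaling, the halved threshold, named clusters in place of the gate, removal of the top Scrublet share, a limit of 8000 UMIs per cell, thinning to 1000 UMIs, and in the Mhrt-led cluster and either mitochondrial class. They became 0 with barcodes past 2 gates kept and in the Xirp2-led cluster. The 3 higher became 5 with the threshold doubled, 1 in the Xirp2-led cluster, and 0 in the Mhrt-led cluster and at a mitochondrial share of at most 1%. For TAC+ART over Sham, the Xirp2-led cluster gave 2 higher and 1 lower in place of 0. The median log2 ratio of the 10 genes for TAC over Sham was -0.258 under TMM scaling, -0.296 and -0.283 with the threshold doubled and halved, -0.367 with barcodes past 2 gates kept, -0.078 and -0.394 in the Mhrt-led and Xirp2-led clusters, -0.308 at a mitochondrial share over 1%, -0.273 after thinning, -0.268 as the mean over cells and 0.0404 after subtraction of free RNA. For TAC+ART over TAC it was 0.19 under TMM scaling, 0.323 and 0.215 with the threshold doubled and halved, 0.228 with barcodes past 2 gates kept, 0.225 at a mitochondrial share over 1%, 0.191 after thinning and 0.000808 after subtraction of free RNA. For TAC+ART over Sham it was -0.108 with the threshold doubled, -0.0664 with barcodes past 2 gates kept, -0.29 in the Xirp2-led cluster, -0.0509 and -0.134 at a mitochondrial share of at most and over 1%, and 0.119 after subtraction of free RNA. Only the choices of cluster and mitochondrial share reversed the sign of a called gene of TAC over Sham. Casq2 was at -0.0165, Hrc at -0.64 and Camk2d at 0.19 in the Xirp2-led cluster. Hrc was at -0.0881 at a mitochondrial share of at most 1%. Among these values only that of Hrc in the Xirp2-led cluster had an interval that left out 0. Of the genes short of 1.5-fold, Atp2a2 and Pln had negative ratios in both clusters. Slc8a1 had positive ones in both, with intervals that included 0. The cause was not tested. The cluster and mitochondrial settings were added after seeing the data. Depth limits Hrc and Casq2 most, with 345 and 578 cardiomyocyte UMIs in Sham.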
